A study of Mus musculus with 4 samples.

Results

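The small nucleolar RNA (snoRNA) host genes described here are the 8 genes Gas5, Snhg1, Snhg3, Snhg5, Snhg6, Snhg8, Snhg11 and Snhg12. GENCODE M21 annotates 7 of them as noncoding and Snhg11 as protein-coding. They were chosen by symbol, and each has 1 row among the 24421 genes of the count tables. All 8 passed the low-count filter and were among the 15012 genes tested. Ribosomal protein genes, taken as the symbols Rpl or Rps followed by digits, served as the comparison set, with 72 of 73 tested.

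Cells came from the cerebral cortex of C57BL/6J mouse embryos at embryonic day 17 and were grown as neural stem cells in proliferation medium with bFGF and EGF for 1 day. Nestin-Cre libraries (n = 2) carried the genotype Prrc2b f/f; Nestin-Cre. Floxed control libraries (n = 2) carried Prrc2b f/f and no Cre, so both groups had the floxed alleles. In the first group Cre recombinase is driven by regulatory sequence of Nes, a gene of neural progenitors, and recombination is limited to cells that use it and their descendants. The labels do not say whether the replicates are separate embryos, pools or cultures, so the p-values reflect variation among 4 libraries that could be technical.

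SnoRNAs are short guide RNAs of the nucleolus. C/D box snoRNAs direct methylation and H/ACA box snoRNAs direct pseudouridylation of ribosomal RNA, and a few act in its cleavage. In mammals most are cut from introns of host genes whose transcripts are spliced, and the joined exons often encode no long protein. Many host transcripts begin, like ribosomal protein mRNAs, with a terminal oligopyrimidine (TOP) tract, which ties translation to growth signals. Gas5, the growth arrest-specific gene, is a well-known case: its spliced RNA is degraded by nonsense-mediated decay when it is translated, and it accumulates when growth stops.

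Gene counts totalled 28205590 and 25936794 in Nestin-Cre libraries 1 and 2, and 26491919 and 28263272 in floxed control libraries 1 and 2. At these depths 3 counts stand for 0.106 to 0.116 counts-per-million (CPM). The 2 libraries of a group lay close together: the mean chi-square per gene was 2.2 between the Nestin-Cre libraries and 1.96 between the control libraries, against 20.4 to 21.2 between groups, over genes with at least 20 counts. Prrc2b itself averaged 574 ± 1.37 CPM in Nestin-Cre libraries and 591 ± 4.24 CPM in control libraries (SD, n = 2 each), a log2 difference of -0.044 with an adjusted p of 0.134 (edgeR). The gene total therefore gives no check of the deletion, and the labels do not name the floxed exons.

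The libraries also differed in sex-linked RNA and in markers of other cell types. Counts of higher and lower markers stand beside 15.1% of all tested genes called higher and 18.1% called lower (edgeR). Both control libraries held Xist together with Y-linked RNA, while the Nestin-Cre libraries held Xist without Y-linked RNA. Y-linked Ddx3y, Eif2s3y, Kdm5d and Uty together summed to 0 and 0 CPM in Nestin-Cre libraries, against 67.5 and 64.7 CPM in control libraries, and Xist had 2209 and 2119 CPM in Nestin-Cre libraries, against 1673 and 1615 CPM in control libraries. Choroid plexus markers summed to 1364 and 1378 CPM in Nestin-Cre libraries, against 214 and 221 CPM in control libraries, with 7 of 8 higher. Astrocyte markers summed to 2196 and 2191 CPM in Nestin-Cre libraries, against 3149 and 3168 CPM in control libraries, with 1 of 8 higher and 6 lower. Markers of neural stem and radial glial cells summed to 6810 and 6839 CPM in Nestin-Cre libraries, against 7944 and 7886 CPM in control libraries. Of these 12 genes, 3 were higher and 6 lower, and Sox2, Pax6 and Nes, which define the labelled cells, were present in every library. Mural, fibroblast and meningeal markers summed to 60.5 and 64.1 CPM in Nestin-Cre libraries, against 188 and 183 CPM in control libraries, with 1 of 8 higher and 7 lower. Microglial markers were near the detection limit and summed to 3.18 and 2.58 CPM in Nestin-Cre libraries, against 6.55 and 7.77 CPM in control libraries, with 0 of 6 tested genes higher and 5 lower. Endothelial markers summed to 14.6 and 15.6 CPM in Nestin-Cre libraries, against 21.7 and 22.6 CPM in control libraries, with 1 of 6 tested genes higher and 2 lower. Erythroid markers were below 1 CPM in sum in every library, and 4 of them were at 0. Oligodendrocyte lineage markers had 4 of 8 genes higher and 1 lower. The part of cell makeup and of sex in the host gene values was not tested, and genotype, Cre and sex makeup cannot be told apart in these 4 libraries. In bulk RNA, fewer cells of a type and less RNA per cell cannot be told apart.

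The starts of the host genes are printed because a pyrimidine run at the start is what host transcripts and ribosomal protein mRNAs have in common. The windows are RefSeq sequence on GRCm38.p6, 40 bases long, from 10 bases before the annotated start to 30 from it, printed in the direction of transcription. Capitals mark a run of at least 5 C or T bases that begins with C and whose first base lies within 5 bases of the annotated start. The promoter table held 7 of the 8 genes, with 2 starts for Gas5. The windows are chr1:161034591-161034630 and chr1:161035156-161035195 on the plus strand for Gas5, chr19:8723477-8723516 on the plus strand for Snhg1, chr4:132353657-132353696 on the minus strand for Snhg3, chr9:88522868-88522907 on the minus strand for Snhg5, chr3:123508307-123508346 on the minus strand for Snhg8, chr2:158375703-158375742 on the plus strand for Snhg11, and chr4:132308668-132308707 on the plus strand for Snhg12.
Gas5, first start: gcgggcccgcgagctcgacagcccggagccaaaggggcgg
Gas5, second start: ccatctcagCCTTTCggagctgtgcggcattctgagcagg
Snhg1: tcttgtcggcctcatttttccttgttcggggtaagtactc
Snhg3: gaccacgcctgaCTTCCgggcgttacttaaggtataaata
Snhg5: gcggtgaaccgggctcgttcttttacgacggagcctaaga
Snhg8: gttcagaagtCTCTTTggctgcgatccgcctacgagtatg
Snhg11: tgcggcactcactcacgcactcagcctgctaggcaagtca
Snhg12: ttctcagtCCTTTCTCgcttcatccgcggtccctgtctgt

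Such a run was found at 4 of the 8 starts: the second start of Gas5, and the starts of Snhg3, Snhg8 and Snhg12. The longest, in Snhg12, had 8 bases. By the same search, 28 of 64 starts of ribosomal protein genes (43.8%), 7 of 15 starts of other TOP genes (46.7%) and 6027 of 32851 starts of all genes (18.3%) held a run. On the opposite strand the shares were 12.5% for the host genes, 15.6% for ribosomal protein genes, 13.3% for other TOP genes and 21.4% for all genes. An annotated start can lie some bases from the start in use, and pyrimidine runs elsewhere in a window are not marked. A window without capitals thus says only that no run met this rule. Gas5 and Snhg12 were higher in Nestin-Cre libraries, Snhg8 did not pass the test and Snhg3 was lower, so the genes with a run did not share a direction.

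Host gene RNA differed little between the groups. Gas5, Snhg6 and Snhg12 were higher in Nestin-Cre libraries by factors of 1.06 to 1.14, Snhg3 was lower at 0.829 of the control level, and Snhg1, Snhg5, Snhg8 and Snhg11 did not pass the test. The differences were tested by edgeR's quasi-likelihood test with Benjamini-Hochberg adjustment over all 15012 genes at 0.05, with libraries scaled by TMM, the trimmed mean of M values. Among all tested genes 15.1% were called higher and 18.1% lower, against 3 and 1 of the 8 host genes. The median log2 difference of the 8 was 0.08, with a range of -0.27 to 0.19, and that of all tested genes was 0.0047. The 8 genes together made up 470 and 465 CPM in Nestin-Cre libraries, against 441 and 449 CPM in control libraries.

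**Figure D1:**
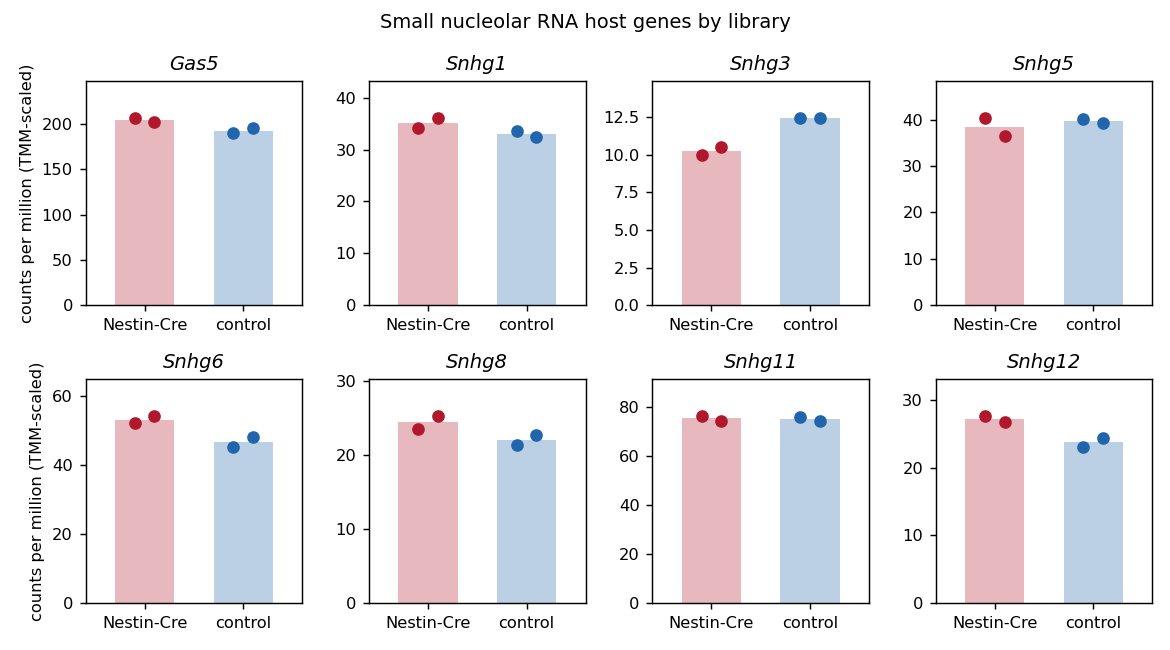
CPM, scaled by TMM, of the 8 host genes in each library; points are libraries, bars are group means, and each panel has its own axis from 0. Both Nestin-Cre points lie above both control points for Gas5, Snhg1, Snhg6, Snhg8 and Snhg12 and below them for Snhg3, and the groups overlap for Snhg5 and Snhg11.

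Gas5 was the most abundant of the 8. It lies on mouse chromosome 1, at 161034422 to 161038539 on the plus strand (GRCm38, GENCODE M21), and holds 10 entries annotated as snoRNAs in its introns, among them Snord47, Snord78 and Snord80. It had 206 and 202 CPM in Nestin-Cre libraries, against 190 and 195 CPM in control libraries. Both Nestin-Cre libraries lay above both controls, and the means were 204 ± 2.5 and 192 ± 3.46 CPM (SD, n = 2 each). The log2 difference was 0.08 ± 0.029 (SE) with an adjusted p of 0.0259, and the 95% interval of the fold ran from 1.02 to 1.1. This call was lost without Nestin-Cre library 1 or without control library 1 (adjusted p = 0.181 in both cases). Gas5 held 43.8% and 43.4% of all host gene counts in Nestin-Cre libraries, against 43% and 43.4% in control libraries.

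Snhg6, the host of Snord87, lies on chromosome 1 at 9941959 to 9944118 on the minus strand. It had 52.1 and 54.1 CPM in Nestin-Cre libraries, against 45.1 and 48 CPM in control libraries, and the groups did not overlap. The log2 difference was 0.19 ± 0.048 (SE) with an adjusted p of 0.00197, the smallest of the 8. Its 95% interval ran from 1.07 to 1.22-fold, and the call held when any single library was left out. It alone of the 4 called genes kept its call under each such omission. The call was lost with DESeq2 (adjusted p = 0.053), and the log2 difference was 0.049 after correction for GC content and length.

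Snhg12 lies on chromosome 4 at 132308623 to 132311024 on the plus strand and holds the H/ACA snoRNAs Snora16a, Snora44 and Snora61 and the C/D snoRNA Snord99. It had 27.6 and 26.7 CPM in Nestin-Cre libraries, against 23.1 and 24.3 CPM in control libraries. Again both Nestin-Cre libraries were above both controls. The log2 difference was 0.19 ± 0.06 (SE), with an adjusted p of 0.0163 and a 95% interval of 1.05 to 1.25-fold. Without Nestin-Cre library 1 the adjusted p was 0.116, and without control library 1 it was 0.13, so the call was lost in both cases.

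Snhg3, the host of Snora73a and Snora73b, an H/ACA pair known for its part in ribosomal RNA cleavage, was the only host gene of the 8 that fell. It lies near Snhg12 on chromosome 4, at 132348014 to 132353686, on the minus strand. It had 10 and 10.5 CPM in Nestin-Cre libraries, against 12.4 and 12.4 CPM in control libraries, from 283 and 274 counts in Nestin-Cre libraries, against 328 and 348 counts in control libraries. Both Nestin-Cre libraries lay below both controls. The log2 difference was -0.27 ± 0.09 (SE) with an adjusted p of 0.0221, and the 95% interval of the fold ran from 0.728 to 0.945. It is the least counted of the 8, and its adjusted p was 0.157 without Nestin-Cre library 1, 0.0733 without control library 1 and 0.0616 without control library 2.

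Snhg1 and Snhg8 sat higher in both Nestin-Cre libraries without passing the test. Snhg1, on chromosome 19 at 8723475 to 8726443 on the plus strand, holds 8 snoRNA entries, among them Snord22. It had 34.2 and 36 CPM in Nestin-Cre libraries, against 33.6 and 32.5 CPM in control libraries, with an adjusted p of 0.245 and a 95% interval of 0.982 to 1.15-fold. Snhg8, on chromosome 3 at 123507552 to 123508404 on the minus strand, hosts Snora24. It had 23.6 and 25.3 CPM in Nestin-Cre libraries, against 21.4 and 22.7 CPM in control libraries, with an adjusted p of 0.0984 and a 95% interval of 1.01 to 1.21-fold. These intervals hold no difference above 1.21-fold in either gene.

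Snhg5 and Snhg11 overlapped between the groups. Snhg5, on chromosome 9 at 88521050 to 88522929 on the minus strand, hosts Snord50a and Snord50b. It had 40.3 and 36.4 CPM in Nestin-Cre libraries, against 40.1 and 39.4 CPM in control libraries, with a 95% interval of 0.897 to 1.04-fold (adjusted p = 0.549). Its 2 Nestin-Cre libraries differed more from each other than the group means did. Snhg11, on chromosome 2 at 158375638 to 158386145 on the plus strand, is used as a marker transcript of neurons in mouse brain. It had 76.2 and 74.4 CPM in Nestin-Cre libraries, against 75.8 and 74.4 CPM in control libraries, with a 95% interval of 0.949 to 1.06-fold (adjusted p = 0.94). The 12 cortical neuron markers, by contrast, summed to 3427 and 3391 CPM in Nestin-Cre libraries, against 3075 and 3054 CPM in control libraries, with 8 higher and 1 lower.

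For 6 of the 8 host genes the groups did not overlap, 5 being higher and 1 lower in both Nestin-Cre libraries. The same held for 64.9% of all tested genes, a similar share. At an unadjusted p under 0.05 edgeR listed 5 of the 8, beside 41.8% of all tested genes. DESeq2 gave an adjusted p under 0.05 for 0 of them, beside 18% of all tested genes. At an unadjusted p under 0.05 it listed Gas5, Snhg6 and Snhg12, beside 27% of all tested genes.

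Levels of different genes were compared per length, as CPM per kilobase of spliced exon. In Nestin-Cre libraries Gas5 stood at 239 ± 2.94, above the next gene, Snhg6, at 54.2 ± 1.49 CPM per kilobase (SD, n = 2). Snhg1 at 40.6 ± 1.44 and Snhg8 at 40.5 ± 2.01 CPM per kilobase did not differ beyond their spread, and Snhg5 at 36.7 ± 2.61 overlapped Snhg8. In control libraries Snhg1 at 38.2 ± 0.906, Snhg5 at 38 ± 0.472 and Snhg8 at 36.6 ± 1.55 CPM per kilobase formed 1 overlapping group. Below these came a pair whose order differed between the groups. Snhg12 at 19.1 ± 0.427 stood above Snhg3 at 17.7 ± 0.646 CPM per kilobase in Nestin-Cre libraries, while Snhg12 at 16.7 ± 0.624 stood below Snhg3 at 21.3 ± 0.0824 CPM per kilobase in control libraries. Snhg11 came last, at 12.8 ± 0.225 CPM per kilobase in Nestin-Cre libraries and 12.8 ± 0.165 in control libraries. These ranks depend on the exons counted: with every annotated exon, retained introns included, Snhg1 moved from place 3 to place 6, and Snhg11 stayed last. Gas5 and Snhg6 kept places 1 and 2, but their gap narrowed to 54.2 against 46.3 CPM per kilobase in Nestin-Cre libraries and 51.2 against 40.6 in control libraries.

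The next comparison asks whether host genes moved as ribosomal protein genes did. Ribosomal protein RNA rose in Nestin-Cre libraries, and 5 of the 8 host genes were lower relative to it, beside 65.3% of all tested genes. Of 72 tested ribosomal protein genes 68 were higher and 1 was lower, with a median log2 difference of 0.26, against 0.08 for the host genes. With GC content and length corrected for, the ribosomal protein median came to 0.15, and every host gene lay below it. The host gene values were then -0.43 for Snhg3, -0.18 for Snhg5, -0.06 for Gas5 and -0.06 for Snhg1. Snhg8 came to -0.0062, Snhg11 to 0.039, Snhg6 to 0.049 and Snhg12 to 0.11. Ribosomal protein genes took up 3.99% and 4.04% of gene counts in Nestin-Cre libraries, against 3.33% and 3.4% in control libraries. Rps26, a protein of the small subunit, had 656 and 704 CPM in Nestin-Cre libraries, against 532 and 536 CPM in control libraries, a log2 difference of 0.35 ± 0.025 (SE; adjusted p = 3.8e-14). Rpl13a, a protein of the large subunit, rose by a log2 difference of 0.33. The exception that fell was Rpl17, with 162 and 141 CPM in Nestin-Cre libraries, against 215 and 215 CPM in control libraries. Ribosomal protein genes have many processed pseudogenes, and no source used here states how shared reads were counted, so their single values are uncertain. Rpl26 was at 0 in all 4 libraries, and Rpl30, Rps27 and Rpl34 stayed under 3 CPM.

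The host genes were also counted per 1000000 counts of ribosomal protein genes. On that scale they had 11783 and 11551 counts in Nestin-Cre libraries, against 13201 and 13143 in control libraries. Gas5 had 5159 and 5013 such counts in Nestin-Cre libraries, against 5682 and 5710 in control libraries. Snhg11 had 1913 and 1845 in Nestin-Cre libraries, against 2266 and 2180 in control libraries. On this scale both genes lay lower in every Nestin-Cre library, and so did every other host gene except Snhg12. Snhg3 had 251 and 262 in Nestin-Cre libraries, against 371 and 362 in control libraries, the largest difference of the 8 when taken as a ratio. Snhg12 had 692 and 663 in Nestin-Cre libraries, against 691 and 713 in control libraries, and these ranges overlapped.

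With ribosomal protein counts as the library size, 5 host genes were lower in Nestin-Cre libraries and 0 higher. The log2 differences were -0.52 ± 0.1 for Snhg3, -0.29 ± 0.06 for Snhg5, -0.24 ± 0.044 for Snhg11, -0.16 ± 0.035 for Gas5 and -0.16 ± 0.06 for Snhg1 (SE). Their adjusted p-values (edgeR) were 4.5e-06, 1.2e-05, 3.7e-06, 4.3e-05 and 0.0148. Snhg8 at -0.1 (adjusted p = 0.19), Snhg6 at -0.06 (adjusted p = 0.326) and Snhg12 at -0.05 (adjusted p = 0.498) did not pass. On this scale, however, 65.3% of all tested genes were lower and 2.27% higher, and the median of all tested genes was -0.24. The 5 of 8 is thus close to the share of all tested genes, and nothing in this count is particular to the host genes. The call of Snhg1 was lost without Nestin-Cre library 1 (adjusted p = 0.119), without control library 1 (0.131) and with DESeq2 (0.114), and the other 4 calls held under every alternative run.

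**Figure D2:**
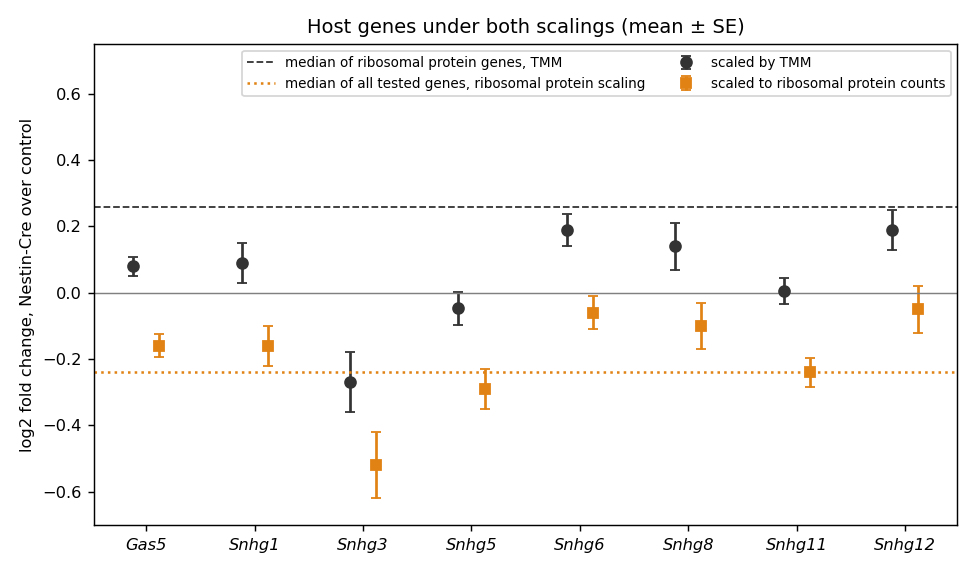
Log2 difference, Nestin-Cre over floxed control, of the 8 host genes with libraries scaled by TMM (circles) and to ribosomal protein counts (squares); bars are SE, n = 2 libraries per group. Under TMM all 8 points lie below the dashed line at 0.26, the ribosomal protein median, and under the other scaling they spread around the dotted line at -0.24, the median of all tested genes.

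Gene by gene, 2 of the 72 ribosomal protein genes had a smaller log2 difference than Gas5, Snhg1, Snhg3, Snhg5 or Snhg11. For Snhg8 the number was 3, for Snhg6 it was 6 and for Snhg12 it was 8. Snhg6 and Snhg12 were therefore the host genes that lay above the most ribosomal protein genes, though most of the 72 had larger differences. Within the ribosomal protein genes, those that host one (25 of 27 higher) and those that host none (43 of 45 higher) both had a median log2 difference of 0.26. The difference between these groups was not tested.

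**Figure D3:**
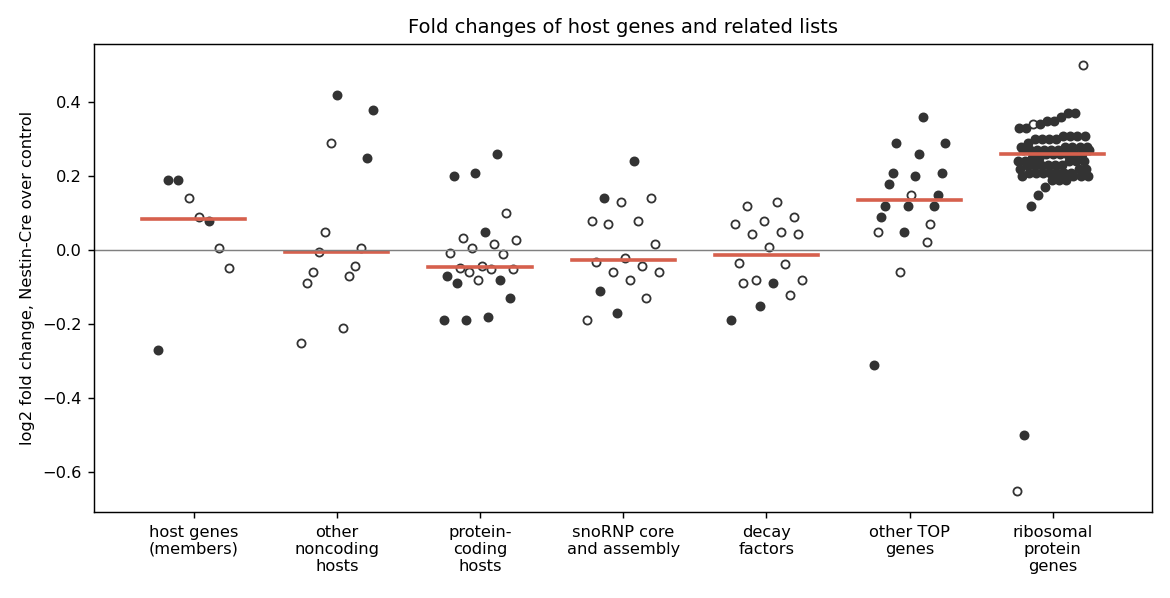
Log2 difference under TMM, Nestin-Cre over floxed control, of each tested gene in 7 lists; filled points have an adjusted p under 0.05 and red bars are list medians. Ribosomal protein genes and other TOP genes lie mostly above 0 (medians 0.26 and 0.14), while the medians of the host gene lists, the snoRNP list and the decay factor list lie between -0.046 and 0.08.

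Other noncoding snoRNA hosts gave a mixed picture. Of 13 tested (Snhg9 was at 0 in all libraries), 3 were higher (23.1%) and 0 lower, with a median log2 difference of -0.0045. Among all tested genes 15.1% were higher and 18.1% lower. Epb41l4aos averaged 30.6 ± 0.227 CPM in Nestin-Cre libraries and 23.6 ± 1.16 CPM in control libraries, a log2 difference of 0.38 (adjusted p = 6e-06). Zfas1, the host of a C/D snoRNA cluster, averaged 36.1 ± 2.04 CPM in Nestin-Cre libraries and 30.3 ± 0.243 CPM in control libraries, a log2 difference of 0.25 (adjusted p = 0.00061). Dancr averaged 7.98 ± 0.526 CPM in Nestin-Cre libraries and 5.94 ± 0.168 CPM in control libraries, a log2 difference of 0.42 (adjusted p = 0.00526). The next gene by p, Snhg7, did not pass at 8.35 and 9.16 CPM in Nestin-Cre libraries, against 7.91 and 6.46 CPM in control libraries. Rian, an imprinted host of brain C/D snoRNAs, had 153 and 147 CPM in Nestin-Cre libraries, against 151 and 151 CPM in control libraries, and did not pass either.

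Protein-coding hosts outside the ribosome split both ways: of 24 tested, 4 were higher (16.7%) and 7 lower (29.2%), with a median log2 difference of -0.046. For this and the wider sets below, the shares of all tested genes were 15.1% higher and 18.1% lower. The 4 higher ones were the elongation factor genes Eef1b2 (0.26 ± 0.024) and Eef2 (0.05), Tpt1 (0.21 ± 0.021) and Rack1 (0.2 ± 0.021, SE), and all of these are also on the list of TOP genes. The lower ones included Kpnb1, a nuclear import receptor, at -0.19 ± 0.024 (adjusted p = 2e-08), and Ncl, which encodes nucleolin, at -0.07. A wider set, taken from the annotation as every tested protein-coding gene with a snoRNA inside it other than ribosomal protein genes, held 210 genes, of which 23 were higher and 45 lower, with a median of -0.025. The matching noncoding set held 17 tested genes, of which 2 were higher and 1 lower, with a median of 0.05.

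TOP genes outside the Rpl and Rps symbols also rose in their majority: of 20 tested, 14 were higher and 1 lower, with a median log2 difference of 0.14. Eef1a1, the main elongation factor of translation, had 9757 and 9683 CPM in Nestin-Cre libraries, against 8049 and 7829 CPM in control libraries (log2 difference 0.29, adjusted p = 4e-18). Fau, whose product is a fusion cleaved to a ribosomal protein, rose by a log2 difference of 0.36. The member that fell was Vim, an intermediate filament gene of radial glia, at -0.31 (adjusted p = 1.5e-17). It is also among the neural stem and radial glial markers.

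The genes for the proteins that assemble with snoRNAs showed few differences. Of 18 tested, 2 were higher and 2 lower (11.1% each), with a median log2 difference of -0.027. All tested genes had shares of 15.1% higher and 18.1% lower. Nop10, a core protein of H/ACA particles, averaged 66 ± 0.983 CPM in Nestin-Cre libraries and 55.8 ± 5.09 CPM in control libraries (0.24 ± 0.048 SE, adjusted p = 0.00011), and the assembly factor gene Rpap3 rose by 0.14. Fbl, the methyltransferase of C/D particles, fell by 0.11 and Naf1, an H/ACA assembly factor, fell by 0.17 on the log2 scale. The other core genes did not pass: Dkc1, the pseudouridine synthase, had 56.8 and 55.1 CPM in Nestin-Cre libraries, against 59.6 and 58.5 CPM in control libraries, and Nop56 had 133 and 131 CPM in Nestin-Cre libraries, against 128 and 133 CPM in control libraries.

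Nonsense-mediated decay, the pathway that degrades many spliced host transcripts, had 0 of 18 tested factors higher and 3 lower (16.7%). The median log2 difference was -0.014. Of all tested genes 15.1% were higher and 18.1% lower, so the share of lower factors was close to that of all genes. Those lower were Etf1 and Gspt1, the release factors of translation, and Smg1, the kinase that acts on Upf1. Etf1 had 173 and 172 CPM in Nestin-Cre libraries, against 192 and 202 CPM in control libraries (-0.19 ± 0.031 SE, adjusted p = 5.3e-06). Smg1 had 199 and 196 CPM in Nestin-Cre libraries, against 219 and 218 CPM in control libraries (-0.15 ± 0.028 SE, adjusted p = 5.8e-05). Upf1, the central helicase, had 120 and 120 CPM in Nestin-Cre libraries, against 116 and 116 CPM in control libraries, and did not pass (adjusted p = 0.345). With a replicate block, 7 genes of this list passed, 2 of them higher and 5 lower.

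Several host genes share their start or exons with a protein-coding neighbour. Zbtb37 starts 427 bases from Gas5 on the opposite strand and had 13.3 and 12.5 CPM in Nestin-Cre libraries, against 16.8 and 14.9 CPM in control libraries. It fell by 0.29 on the log2 scale (adjusted p = 0.00815), while Gas5 rose. Slc3a2, an amino acid transporter subunit gene, starts 106 bases from Snhg1 on the opposite strand and had 209 and 205 CPM in Nestin-Cre libraries, against 197 and 199 CPM in control libraries. Like Snhg1 it sat higher in both Nestin-Cre libraries and did not pass (adjusted p = 0.0839). Rcc1, a chromatin-bound exchange factor gene, shares 135 exon bases with Snhg3 on the same strand and had 50.9 and 47.3 CPM in Nestin-Cre libraries, against 53.8 and 51.2 CPM in control libraries (adjusted p = 0.134). Mcmdc2 shares 127 exon bases with Snhg6 on the opposite strand, at 1.41 and 1.38 CPM in Nestin-Cre libraries, against 1.51 and 1.17 CPM in control libraries. The annotation places Gm17300 over 705 exon bases of Snhg3 on the opposite strand, and the tables hold no row for it. No source used here states the strand setting or the rule for reads in shared exons, so the counts of Snhg3 in particular are uncertain.

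Rows for snoRNAs had few counts in these poly(A)-selected libraries, and what limits these counts was not tested. Of the annotated snoRNA entries, 3 in Snhg12 and 2 in Snhg1 overlap a host exon. Whether the counts come from mature snoRNAs or from host RNA was not tested. These rows therefore cannot decide whether mature snoRNA levels differed. Snord22, from Snhg1, had 14 and 17 counts in Nestin-Cre libraries, against 7 and 14 in control libraries. Snora16a, from Snhg12, had 33 and 37 counts in Nestin-Cre libraries, against 32 and 43 in control libraries. Those 2 were the most counted of the 8 rows for snoRNAs of the host genes. Snord99 had 13 and 8 counts in Nestin-Cre libraries, against 10 and 17 in control libraries, Snord47 had 2 and 2 in Nestin-Cre libraries, against 3 and 2 in control libraries, and Snora24 was at 0 throughout. Of 119 rows named Snora, Snord or Scarna, 23 were at 0 in every library and the median total over 4 libraries was 10 counts. Of the 35 rows that passed the low-count filter, edgeR called 0 higher and 0 lower, and 0 had an unadjusted p under 0.05. DESeq2 and limma voom also gave 0 at either threshold.

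The host genes' median profile, each gene's log2 CPM centred on its own mean, was 0.035 and 0.051 in Nestin-Cre libraries, against -0.04 and -0.027 in control libraries. By Euclidean distance over the 4 libraries, the nearest of 7226 genes with a mean log2 CPM of at least 5 were Phf24, Snrnp27, Zfp46, Nfix and Pdcd6, at distances of 0.0131 to 0.0146. Nfix, a transcription factor gene of neural development, had 477 and 484 CPM in Nestin-Cre libraries, against 453 and 454 CPM in control libraries, and was the only one of the 5 that passed the test (adjusted p = 0.00577). With 4 libraries, this likeness is a description of small differences in the same order.

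**Figure D4:**
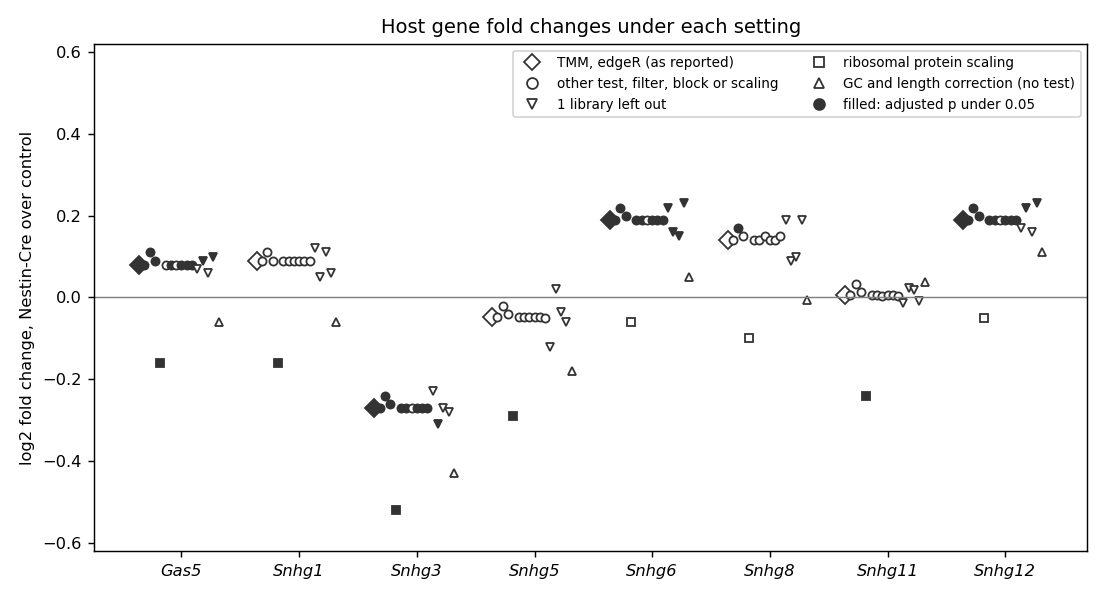
Log2 difference, Nestin-Cre over floxed control, of each host gene under each setting: as reported (diamond), other tests, filters, scalings and the replicate block (circles), 1 library left out (triangles pointing down), ribosomal protein scaling (squares) and correction for GC content and length (triangles pointing up, no test). Filled symbols have an adjusted p under 0.05; Snhg3 stays below 0 under every setting, and under ribosomal protein scaling all 8 genes lie below 0.

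Ribosomal protein scaling moved the host gene differences more than the other scalings did. Under DESeq2-style, upper quartile and total count scaling, Gas5 stayed between 0.08 and 0.11, and Snhg6 and Snhg12 between 0.19 and 0.22. Ribosomal protein scaling shifted the median of all tested genes to -0.24. Under ribosomal protein scaling Gas5, Snhg6 and Snhg12 turned to -0.16, -0.06 and -0.05, and after correction for GC content and length Gas5 turned to -0.06, while Snhg6 and Snhg12, both at 0.19 before it, came to 0.049 and 0.11, with no test under this correction. Snhg3 was below 0 under every setting, between -0.52 and -0.23. Its adjusted p under the alternatives ran from 4.53e-06 to 0.219.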

How the data were processed

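Poly(A) RNA was sequenced from 4 libraries, 2 per group, with dUTP strand marking, per the labels' protocols. The authors deposited raw counts per gene symbol. HISAT2 2.2.1, HTSeq 0.12.4, DESeq2 1.26.0 and mm10 are named in the submitters' processing notes; the counting's annotation and strand setting are not given in the sources used. Lines for unassigned reads (25.2% to 26.1% of entries) were left out. Groups and replicate numbers came from the labels.

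Counts were fitted with edgeR 4.0.16 (R 4.3.3): filterByExpr, TMM, quasi-likelihood F test, Benjamini-Hochberg adjustment over 15012 genes, threshold 0.05. CPM use TMM-scaled library sizes, and SE is the absolute log2 difference over the square root of F. Intervals are 95% and come from that fit; floors of 3 counts cover counting error only. A second fit used summed ribosomal protein counts as library size. The smallest two-sided exact permutation p for 2 against 2 is 0.333, so no permutation test was run. The fit was tested on simulated counts. Positions, lengths and neighbours came from GENCODE M21 (GRCm38), and promoter sequence from RefSeq GRCm38.p6. Some genes were found under older symbols.

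The host genes, lists and tests were chosen with earlier results of these data known. Named genes were the 8 host genes, Prrc2b, up to 4 genes per list with the smallest p (a few are not reported here), genes overlapping a host gene's exons or starting within 2000 bases of its start on the other strand, and the 5 nearest profiles. Rian, Eef2, Ncl, Dkc1, Nop56, Upf1, Rpl26, Rpl30, Rps27 and Rpl34 were named after their values were seen. Alternatives covered scalings, filters, DESeq2 1.42.0, limma 3.58.1 voom, the legacy fit, a replicate block, GC content and length, and omission of each library.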

Additional observations from a re-analysis of the deposited data

How the results depend on the processing

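Of 15012 genes, 4974 were called; ribosomal protein scaling called 10140 (341 higher, 9799 lower) and DESeq2 called 2697 (1055 higher, 1642 lower). Of the 8 host genes, 4 were called; DESeq2 called 0, and leaving out 1 library gave 1 to 4. The median of ribosomal protein genes, 0.26, was 0.15 after GC content and length correction; the cause was not tested. Ribosomal protein scaling shifted the median of all genes to -0.24 and gave -0.16 for Gas5, -0.16 for Snhg1, -0.06 for Snhg6, -0.1 for Snhg8, -0.24 for Snhg11 and -0.05 for Snhg12, each opposite in sign to the TMM value. The GC content and length correction turned Gas5 to -0.06, Snhg1 to -0.06 and Snhg8 to -0.0062. Leaving out 1 library, Snhg5 ranged from -0.12 to 0.021 and Snhg11 from -0.014 to 0.022. Gas5 also lost its call with no low-count filter (adjusted p = 0.0582) and DESeq2 (0.163), Snhg3 with DESeq2 (0.219), Snhg6 with DESeq2 (0.053) and Snhg12 with DESeq2 (0.185), while Snhg8 passed with upper quartile scaling (0.0437). The 5 calls below ribosomal protein genes were 5 with a replicate block too, where 4 host genes and 5323 genes were called. Across genes, the difference between libraries 1 and 2 correlated at r = -0.016 between the groups. The labels name no batch, and whether same-numbered libraries share a preparation was not tested. Depth limits Snhg3 most, with 274 to 348 counts per library.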
